A study of Homo sapiens with 6 samples.

Results

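The 8 genes described here encode parts of the tight junction. They were chosen by their symbols from the 27264 gene rows of the count table, with earlier results of these data known. They are OCLN (occludin), MARVELD2 (tricellulin) and MARVELD3 of the MARVEL family, the cytoplasmic scaffolds TJP1 (ZO-1), TJP3 (ZO-3) and CGN (cingulin), and the adhesion molecules F11R (JAM-A) and CXADR. All 8 had a row, and all 8 passed the filter on low counts, which left 11732 genes to test. The cells were DLD-1, an epithelial colorectal cancer line, and the name TR21, which the labels do not explain, stands in the description of all 6 libraries. They were in a setup that the labels call ZEB2 WT with or without DOX (read here as doxycycline). With DOX, 3 libraries were labelled ZEB2 WT +DOX and mesenchymal, and without DOX 3 were labelled ZEB2 WT -DOX and epithelial. Each group held 1 library from each of the clones WT2, WT5 and WT37, and the series' design text calls the clones biological replicates. All 6 libraries carry the label ZEB2 WT, so the action of DOX itself and that of an induced ZEB2 cannot be told apart. The sources used here do not describe the ZEB2 construct, its promoter, the DOX dose or the time of exposure.

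Tight junctions seal the space between neighbouring epithelial cells near their apical side. Claudins form the strands, and proteins with a MARVEL domain lie beside them: occludin along the contacts between cell pairs, tricellulin at tricellular contacts. On the cytoplasmic side the ZO proteins bind the tails of these membrane proteins and, with cingulin, tie them to actin. F11R and CXADR belong to the immunoglobulin superfamily, and their tails also bind PDZ scaffolds. ZEB2 is a zinc finger repressor that binds E-box DNA such as CACCTG, and it is known for lowering epithelial junction genes during epithelial-to-mesenchymal transition.

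Because of that known binding, the promoter windows of the genes were read for CACCTG on both strands (its reverse complement is CAGGTG). RefSeq promoter windows on GRCh38.p14, from 250 bases before to 50 bases after a transcript start, matched 5 of the 8 genes, with 10 windows in all. MARVELD3, F11R and CXADR had no window, so the motif counts do not cover them. CACCTG stood in 4 of these 10 windows, against 20.6% of 35114 windows genome-wide. The shorter CACCT, which is part of every CACCTG, stood in 7 of the 10, against 51.6% genome-wide. The windows of MARVELD2 (1 window) and CGN (1 window) held 0 copies of either motif. The 4 windows with the longer motif follow, in lower case with each CACCTG or CAGGTG in capitals. Both OCLN windows lie on the plus strand of chromosome 5 and overlap each other. The TJP1 window is on the minus strand and the TJP3 window on the plus strand.
OCLN, chr5:69492297-69492596: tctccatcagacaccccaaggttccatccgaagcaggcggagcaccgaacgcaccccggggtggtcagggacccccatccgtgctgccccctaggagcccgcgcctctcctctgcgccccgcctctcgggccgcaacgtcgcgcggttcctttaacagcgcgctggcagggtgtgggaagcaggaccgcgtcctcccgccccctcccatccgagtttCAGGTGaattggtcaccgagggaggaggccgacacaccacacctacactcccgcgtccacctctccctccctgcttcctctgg
OCLN, chr5:69492540-69492839: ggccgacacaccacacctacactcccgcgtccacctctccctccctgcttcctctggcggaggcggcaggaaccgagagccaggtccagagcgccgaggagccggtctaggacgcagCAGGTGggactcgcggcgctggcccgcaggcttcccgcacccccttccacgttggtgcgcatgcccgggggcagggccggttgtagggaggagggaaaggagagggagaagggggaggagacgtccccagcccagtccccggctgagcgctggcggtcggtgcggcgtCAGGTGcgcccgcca
TJP1, chr15:29969000-29969299: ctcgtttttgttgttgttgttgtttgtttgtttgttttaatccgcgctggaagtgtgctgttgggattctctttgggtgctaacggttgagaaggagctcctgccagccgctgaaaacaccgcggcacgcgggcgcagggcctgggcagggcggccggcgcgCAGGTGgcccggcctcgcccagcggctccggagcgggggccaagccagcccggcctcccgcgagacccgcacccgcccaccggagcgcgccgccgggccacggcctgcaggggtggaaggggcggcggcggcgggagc
TJP3, chr19:3721487-3721786: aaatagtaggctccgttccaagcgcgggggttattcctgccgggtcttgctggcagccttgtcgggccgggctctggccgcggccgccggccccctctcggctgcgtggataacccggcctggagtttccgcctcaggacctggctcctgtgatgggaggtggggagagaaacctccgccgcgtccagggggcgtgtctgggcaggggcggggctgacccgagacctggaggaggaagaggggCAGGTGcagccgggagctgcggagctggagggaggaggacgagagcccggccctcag
Counting to the first base of the match, in the TJP3 window the motif began 7 bases before the start, in the TJP1 window 88 bases before it, and in the 2 OCLN windows 33 and 133 bases before it, with a further copy in the later OCLN window from base 36 after the start. These matches describe letters in the windows; binding was not measured here.

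The counts came from a kit that reads the end of polyadenylated transcripts, so a level does not grow with transcript length. Levels are given in CPM, counts scaled to a common library total (reads in genes, TMM scaling). Reads in genes numbered 5440093 to 7164426 per library. ZEB2 itself was covered with DOX by 20 (WT2), 9 (WT5) and 22 (WT37) reads, against 9, 5 and 3 reads without DOX. Its level was 2.48 ± 1.06 CPM with DOX and 0.994 ± 0.678 CPM without DOX (SD, n = 3 each, exact two-sided permutation test p = 0.2, unpaired, where the smallest possible is 0.1). It was higher with DOX in each clone, at log2 ratios of 0.81 for WT2, 0.48 for WT5 and 2.15 for WT37, and the fit paired by clone gave 1.38 ± 0.48 SE (edgeR unadjusted p = 0.0137, adjusted p = 0.225). A construct that lacks the natural transcript end would not be read, so ZEB2 checks the labels in part. The 10 colon epithelial markers, of which CDX1 was at 0 in every library, summed to between 4190 and 5750 CPM with DOX and between 6740 and 8560 CPM without DOX. The 8 mesenchymal markers summed to between 21.9 and 58.1 CPM with DOX and between 23 and 37.5 CPM without DOX, with TWIST1 at 0 in every library. VIM (vimentin) had 5, 8 and 15 reads with DOX for WT2, WT5 and WT37, against 1, 3 and 5 reads without DOX, and ZEB1 had 4, 9 and 11 reads with DOX, against 1 in each library without DOX. In CPM both were higher with DOX in each clone with no overlap between the groups, but their reads were too few to pass the filter for the test. FN1 and SNAI1 were lower with DOX in each clone, and neither passed (edgeR adjusted p = 0.287 for FN1 and 0.476 for SNAI1). In the fit paired by clone, 2 of 9 tested epithelial markers fell (EPCAM and KRT18) and 1 rose (CDX2), and 1 of 3 tested mesenchymal markers rose (S100A4). Clone WT37 stood apart from the others: 684 genes differed between WT37 and WT2 and 694 between WT37 and WT5, against 120 between WT5 and WT2.

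With DOX, MARVELD3 fell in the fit that pairs the libraries by clone, and it was the only one of the 8 genes to pass there. Without the pairing, edgeR called 0 of the 8. In the paired fit the log2 fold changes of all 8 lay below 0 and their median was -0.30, whereas 48.9% of all genes tested lay below 0 and their median was 0.01. The sizes ran from -1.11 for MARVELD3 to -0.05 for CGN. The count of 1 in 8 called genes, in the lower direction, stands against 0.639% of the genes tested that fell, and 1.3% that were called either way (75 lower and 77 higher). Without the clone as a block, 0% of all genes were called. At an unadjusted p under 0.05, 4 of the 8 were lower with the block, where 6.17% of the genes tested were lower and 12.9% passed either way. Without the block 3 of the 8 were lower at that level, where 2.96% were lower and 6.04% passed either way. The tests were edgeR's quasi-likelihood tests with Benjamini-Hochberg adjustment over all genes and a threshold of 0.05. Since the 8 genes were chosen with earlier results of these data known, their counts beside the background are descriptive and no independent test.

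Within the MARVEL family, MARVELD3 (ENSG00000140832, chromosome 16, 71626161 to 71642114, plus strand) encodes a membrane protein that shares the MARVEL domain with occludin. Its level was 24.8, 42.5 and 21 CPM with DOX in WT2, WT5 and WT37, against 56.8, 62.8 and 64.8 CPM without DOX. Every library with DOX was below every library without it, and WT5 with DOX lay between the other libraries. The means were 29.5 ± 11.5 CPM with DOX and 61.4 ± 4.16 CPM without DOX (SD, n = 3 each). With the clone as a block the log2 fold change was -1.11 ± 0.18 SE (edgeR adjusted p = 0.0243), that is 0.463 times the level without DOX. Without the block it was -1.06 ± 0.23 SE (edgeR adjusted p = 0.336). In the blocked fit the log2 fold change was -1.08 without WT2 (edgeR adjusted p = 0.227), -0.86 without WT37 (adjusted p = 0.12) and -1.42 without WT5 (adjusted p = 0.00025). The call was thus lost without WT2 or WT37. Of all genes, 8 passed without WT2, 5 without WT37 and 736 without WT5. With so few genes called, a lost call there does not single out MARVELD3.

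Exons of PHLPP2, a gene on the opposite strand, overlap exons of MARVELD3 in the annotation, and the strand setting of the counting was not stated in the sources read. PHLPP2 had 77, 87 and 145 reads with DOX, against 78, 78 and 109 reads without DOX. Its log2 fold change was 0.03 ± 0.18 SE in the blocked fit (edgeR adjusted p = 0.965). In the annotation the overlap does not touch the last kilobase of MARVELD3. Whether reads of PHLPP2 entered the count of MARVELD3 was not tested.

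MARVELD2 (ENSG00000152939, chromosome 5, 69415065 to 69444330, plus strand), which encodes the tricellulin of tricellular contacts, had 29.8, 31.3 and 27.4 CPM with DOX in WT2, WT5 and WT37, against 38.4, 39.6 and 33.7 CPM without DOX. The groups did not overlap, and the ratio was of like size in each clone, at -0.37, -0.34 and -0.29 on the log2 scale. The blocked log2 fold change of -0.34 ± 0.12 SE did not pass over all genes (edgeR adjusted p = 0.25).

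OCLN (ENSG00000197822, chromosome 5, 69492292 to 69558104, plus strand), the gene of occludin, was counted by few reads. It had 15, 19 and 24 reads with DOX in WT2, WT5 and WT37, against 22, 21 and 30 reads without DOX. The levels were 2.47, 2.71 and 3.14 CPM with DOX, against 4.25, 3.5 and 4.11 CPM without DOX, and the groups did not overlap. The blocked log2 fold change of -0.50 ± 0.30 SE did not pass (edgeR adjusted p = 0.518), and within each clone the counting error alone spanned 0. An unprocessed pseudogene, OCLNP1, lies on the same chromosome and had 1 read in all libraries together. Reads mapped to several places stood in a row of their own, so the level of OCLN is uncertain.

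**Figure D1:**
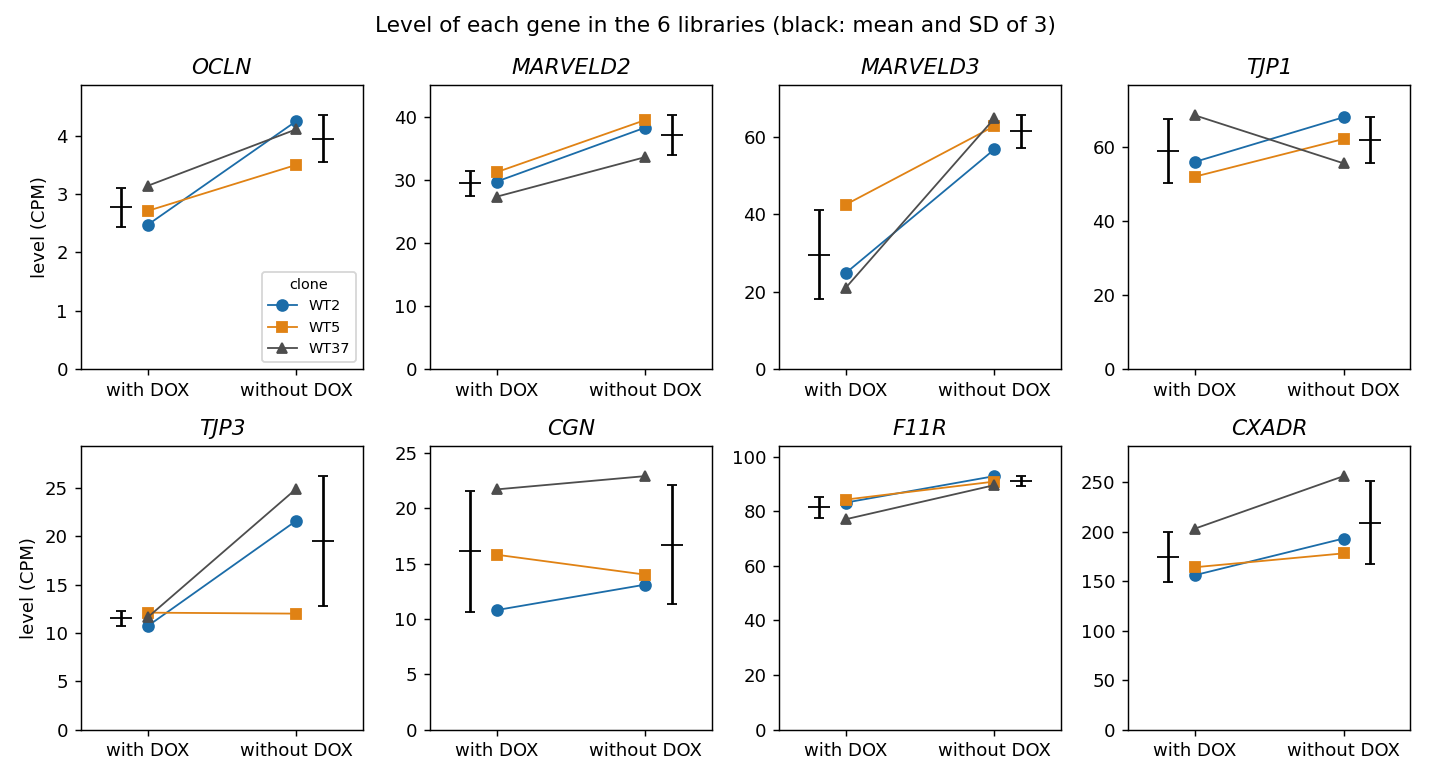
Level in CPM (y axis, from 0) of each gene with DOX (left) and without DOX (right), where a line joins the libraries of a clone and the black mark gives mean ± SD of 3 libraries. MARVELD3, MARVELD2, OCLN and F11R do not overlap between the groups, whereas the lines of TJP1 cross.

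Among the scaffolds, TJP3 had the lower levels with DOX in WT2 and WT37, and TJP1 and CGN had fold changes near 0. TJP3 (ENSG00000105289, chromosome 19, 3708109 to 3750813, plus strand) encodes ZO-3, a ZO protein found in epithelia. Its level was 10.7, 12.1 and 11.6 CPM with DOX in WT2, WT5 and WT37, against 21.6, 12 and 24.9 CPM without DOX. The libraries with DOX lay close together, and WT5 without DOX sat among them, far below the other libraries without DOX. The log2 ratio in WT5 was 0.02, against -1.08 in WT37, and WT2 was close to WT37. The blocked log2 fold change of -0.72 ± 0.22 SE did not pass (edgeR adjusted p = 0.156). It was -0.58 without WT2 (adjusted p = 0.632, edgeR) and -0.51 without WT37 (adjusted p = 0.943). It passed without WT5, the clone with no lower level, at -1.06 (edgeR adjusted p = 0.00457), where 736 genes were called. With all clones and no filter on low counts it also passed, at -0.72 (edgeR adjusted p = 0.00568), where 518 genes were called.

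TJP1 (ENSG00000104067, chromosome 15, 29699367 to 29968865, minus strand) encodes ZO-1, which links claudins and occludin to actin. It had 56.1, 52.1 and 68.7 CPM with DOX in WT2, WT5 and WT37, against 68.2, 62.3 and 55.7 CPM without DOX. The levels with DOX were lower in WT2 and WT5 and higher in WT37, with log2 ratios of -0.28, -0.26 and 0.30. Counting error at 95% was ±0.21, ±0.21 and ±0.19 around these ratios, so none of the 3 spanned 0. The blocked log2 fold change was -0.07 ± 0.13 SE (edgeR adjusted p = 0.863), and the limma-voom interval at 95% ran from -0.35 to 0.22.

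CGN (ENSG00000143375, chromosome 1, 151510510 to 151538692, plus strand) encodes cingulin, which binds ZO proteins and the actomyosin belt. It had 10.8, 15.8 and 21.7 CPM with DOX in WT2, WT5 and WT37, against 13.1, 14 and 22.9 CPM without DOX. The groups overlapped almost wholly, and the clones differed more than the conditions. The blocked log2 fold change was -0.05 ± 0.16 SE (edgeR adjusted p = 0.933), with a limma-voom interval at 95% from -0.39 to 0.30.

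Of the adhesion molecules, F11R and CXADR had small differences with DOX that went the same way in all 3 clones. F11R (ENSG00000158769, chromosome 1, 160995211 to 161021348, minus strand) encodes JAM-A, which takes part in junction assembly. Its level was 83.2, 84.3 and 77.1 CPM with DOX in WT2, WT5 and WT37, against 92.9, 90.9 and 89.6 CPM without DOX. The groups did not overlap, but the blocked log2 fold change of -0.16 ± 0.10 SE did not pass (edgeR adjusted p = 0.525). The log2 ratios, with counting error at 95%, were -0.16 ± 0.18 in WT2, -0.11 ± 0.17 in WT5 and -0.22 ± 0.16 in WT37. In WT2 and WT5 this error spanned 0.

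CXADR (ENSG00000154639, chromosome 21, 17512382 to 17593579, plus strand) encodes the coxsackievirus and adenovirus receptor, an adhesion molecule of epithelial contacts. It had 156, 164 and 203 CPM with DOX in WT2, WT5 and WT37, against 193, 178 and 256 CPM without DOX. The WT37 library with DOX was above both WT2 and WT5 without DOX, so the groups overlapped. The blocked log2 fold change of -0.26 ± 0.09 SE did not pass (edgeR adjusted p = 0.244). CXADR has the processed pseudogenes CXADRP1, CXADRP2 and CXADRP3, which had no row in the count table. The level of CXADR is uncertain where reads are shared with them.

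Taking the 8 genes together, 5 were lower with DOX in all 3 clones, where 17.3% of the genes tested were. Of the 8, 0 were higher in all 3, where 2087 of the 11732 genes tested were. Levels with DOX lay wholly below those without DOX for 4 genes, where 6.08% of the genes tested did, and wholly above them for 0 genes, where 5.32% did. For WT2 the median log2 ratio of the 8 was -0.34, for WT5 -0.19 and for WT37 -0.32, while that of all genes tested was 0 in each clone to 2 decimals. Here too, the choice of the 8 with earlier results known leaves these comparisons descriptive. Colon epithelial marker sums were also lower with DOX, as given above, and their part in these values was not tested. In bulk RNA, fewer cells with a transcript and less of it per cell cannot be told apart. Differences in the DOX effect between clones were not tested, since each clone had 1 library per condition.

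**Figure D2:**
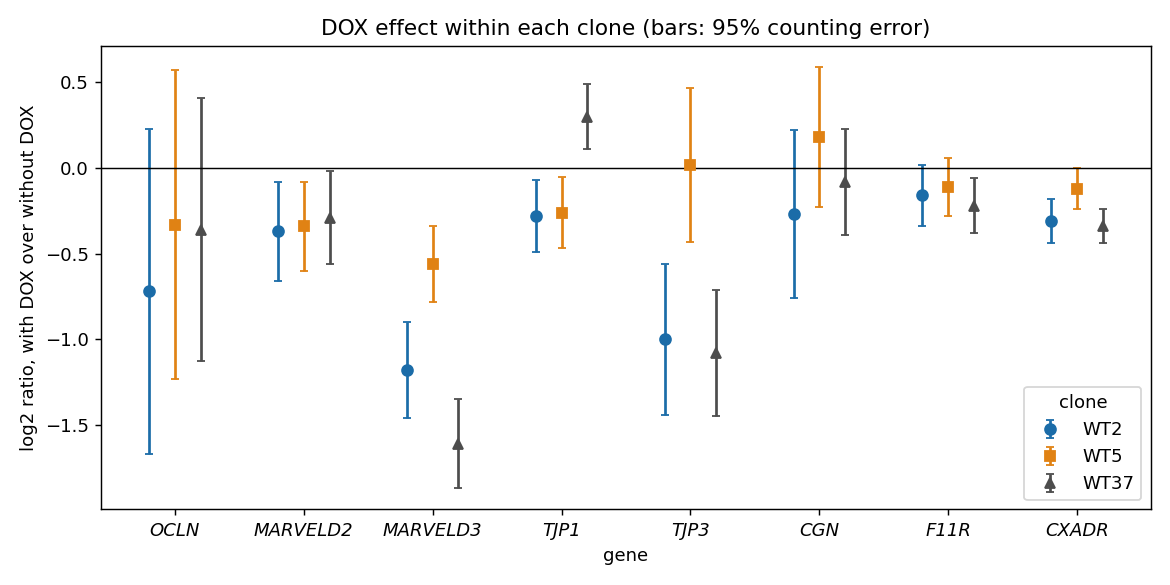
Log2 ratio of the level with DOX over that without DOX (y axis) for each gene (x axis) in WT2, WT5 and WT37, with bars for 95% counting error only. MARVELD3 lies below 0 in every clone, from -1.61 in WT37 to -0.56 in WT5, TJP3 lies near 0 in WT5, and TJP1 is above 0 in WT37 alone.

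The 44 partner genes of the apical junction that were listed beside the 8 lay on both sides of 0. Of the 43 with a row, 33 passed the filter, and in the blocked fit 15 of these 33 lay below 0 with a median log2 fold change of 0.04. Over all genes tested, 1 partner rose and 0 fell with the block (background 0.656% higher and 0.639% lower), and 0 passed without it. At an unadjusted p under 0.05, 6 partners were lower and 4 higher in the blocked fit. In all 3 clones 8 partners were lower with DOX (24.2% of the 33) and 12 were higher. For 5 (15.2%) the levels with DOX lay wholly below those without DOX. Levels with DOX lay wholly above those without it for IGSF5, TJAP1, PALS1, PARD6G, AMOTL2, ARHGEF11, SYMPK and MYLK. Of the 11732 genes tested, 787 were higher at an unadjusted p under 0.05 in the blocked edgeR fit, and 2087 were higher in all 3 clones. The other shares over all genes tested are those given above, and the difference between the partners and the 8 genes was not tested. The partner that rose past the threshold was ILDR2, one of the angulins, which bring tricellulin to tricellular contacts. ILDR2 had 17.3, 11.8 and 29.9 CPM with DOX in WT2, WT5 and WT37, against 10.6, 8.32 and 12.6 CPM without DOX. It was higher with DOX in each clone although the groups overlapped, and its blocked log2 fold change was 0.86 ± 0.19 SE (edgeR adjusted p = 0.0469). In that fit 0 partners passed without WT2, where 8 of all genes did, and 0 without WT37, where 5 did. Without WT5, 5 partners fell and 1 rose, among 736 genes called. With no filter on low counts 3 partners fell and 1 rose, among 518 genes.

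The other angulins, chosen after their values were seen, had fold changes below 0 that did not pass. ILDR1 had 6 to 27 reads per library and a blocked log2 fold change of -1.14 ± 0.36 SE (edgeR adjusted p = 0.172), and LSR was at -0.24 ± 0.12 SE (adjusted p = 0.443). LSR was lower with DOX in WT2 and WT37 and higher in WT5, at log2 ratios of -0.41, -0.46 and 0.16, and its groups overlapped.

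**Figure D3:**
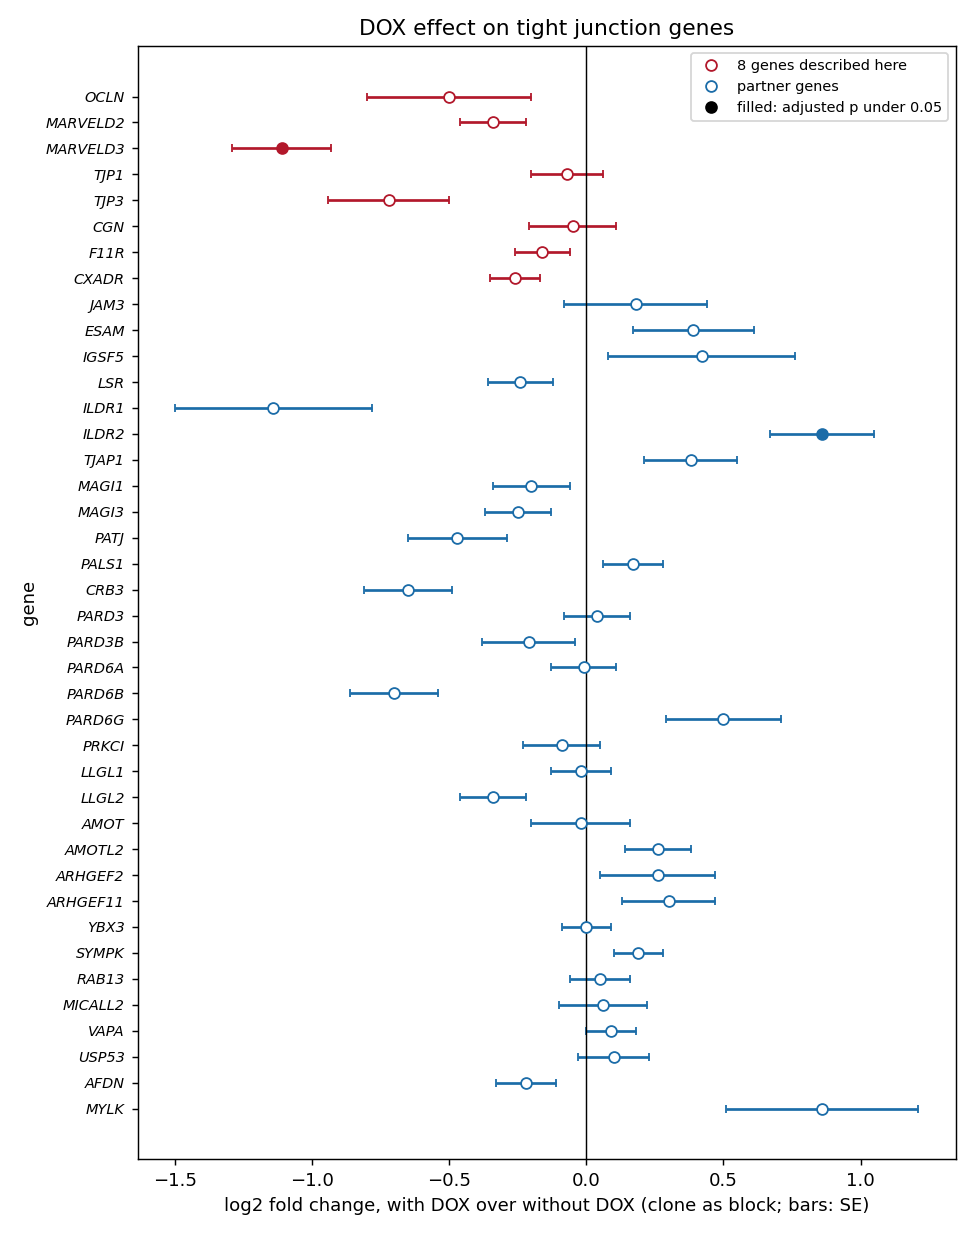
Log2 fold change with DOX over without DOX (x axis, edgeR fit with the clone as block, bars show SE) for the 8 genes in red and tested partners in blue. Filled points passed over all genes: MARVELD3 at -1.11 and ILDR2 at 0.86.

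Claudins, which share the junction strands with occludin, had 8 tested genes of 16 in the table. In the blocked fit 7 of the 8 lay below 0, the median log2 fold change was -0.34, beside -0.50 for OCLN, and 0 passed. Without robust estimation of the spread 1 claudin passed, CLDN7, named after its values were seen, at -2.94 ± 0.31 SE (edgeR adjusted p = 0.00255), against adjusted p = 0.244 with it.

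Between clones, CGN was the only one of the 8 genes that passed the test of the clone term with DOX as covariate (edgeR adjusted p = 0.038), where 6.84% of the genes tested passed. CGN was 0.90 ± 0.20 SE higher on the log2 scale in WT37 than in WT2 (adjusted p = 0.0249, edgeR), with mean levels of 22.3 CPM in WT37 and 12 CPM in WT2 over 2 libraries each. Both WT37 libraries lay above all others. Against WT5, at 14.9 CPM, the difference was 0.57 ± 0.19 SE and did not pass (edgeR adjusted p = 0.0971). CGN did not pass without WT37 (edgeR adjusted p = 0.75), where 129 genes passed, or without WT2 (adjusted p = 0.153), where 406 did. With all clones 802 genes passed, so the lost call went with fewer calls among all genes. CGN also did not pass when 1 library of WT37 or WT2 was left out, which leaves that clone with 1 library.

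CXADR did not pass the clone test (edgeR adjusted p = 0.053). Its mean level was 230 CPM in WT37, 171 CPM in WT5 and 174 CPM in WT2. In single contrasts, WT37 was 0.42 ± 0.11 SE above WT5 (edgeR adjusted p = 0.0492, background 5.92%) and 0.40 ± 0.11 SE above WT2 (adjusted p = 0.0599, background 5.83%). The other 6 genes had clone adjusted p between 0.285 and 0.904. Among them MARVELD3 was at 42.9 CPM in WT37, 52.6 CPM in WT5 and 40.8 CPM in WT2, and F11R kept within 83.3 to 88 CPM over the clone means. For WT5 over WT2, where 1.02% of all genes passed, 0 of the 8 did. The clone test assumes that DOX acts alike in all clones. A gene that did not pass is therefore not shown to be alike between them.

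**Figure D4:**
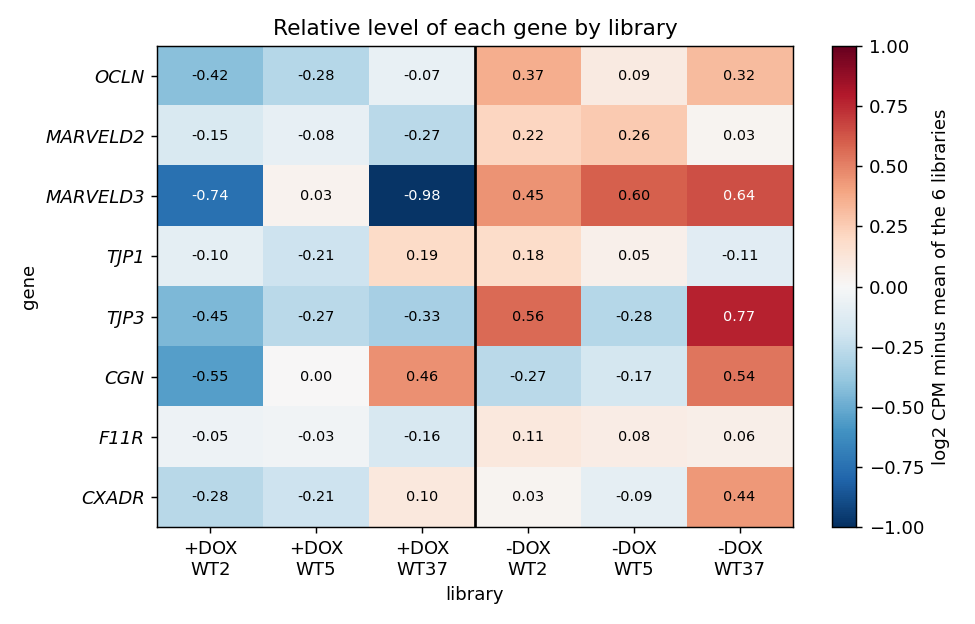
Level of each gene (rows) in each library (columns, with DOX left of the line and without DOX right of it) as log2 CPM minus the gene's mean over 6 libraries. MARVELD3 spans -0.98 to 0.64, and CGN is highest in both WT37 libraries, at 0.46 and 0.54.

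The genes varied together only in part. Over the 6 libraries, log2 levels of F11R correlated with those of MARVELD2 (r = 0.94) and MARVELD3 (r = 0.92), and CXADR with CGN (r = 0.81), while TJP1 had r between -0.14 and 0.47 with every other member. These values describe 6 libraries that share 3 clones and 2 conditions. The mean of the 8 centred log2 levels with DOX was -0.33 for WT2 and -0.13 for both WT5 and WT37, against 0.20, 0.06 and 0.33 for WT2, WT5 and WT37 without DOX. Of 8106 other genes with a mean of at least 10 CPM, SMAD5, LARGE2, NDUFAB1, CCP110 and VARS2 followed that mean most closely over the 6 libraries (r = 0.996, 0.989, 0.988, 0.987 and 0.980). LARGE2 encodes a glycosyltransferase and SMAD5 a mediator of BMP signals. Their blocked log2 fold changes were -1.78 ± 0.31 SE for LARGE2 (edgeR adjusted p = 0.0823) and -0.13 ± 0.10 SE for SMAD5 (adjusted p = 0.643), so a high r went with changes of very unlike size. The SMAD5 ratios, with counting error at 95%, were -0.16 ± 0.20 in WT2, -0.06 ± 0.19 in WT5 and -0.16 ± 0.17 in WT37, so each spanned 0. These 5 genes were picked as the highest r of 8106 over 6 libraries, so such r carry little weight.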

How the data were processed

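Messenger RNA was read with QuantSeq 3' FWD libraries, per the labels' protocols. The authors deposited raw counts per Ensembl gene, with GRCh38 and DESeq2 named in the submitters' processing notes; the aligner, counter, annotation and strand setting are not stated there or in the labels. Besides 27264 gene rows, 4 rows for unassigned reads (4.29% to 5.25% unmapped, 11.8% to 16% mapped to several places, 8.72% to 11.7% outside features, 6.85% to 7.4% ambiguous) stayed out of totals and tests. A symbol table named 22056 of the identifiers and GENCODE 29 another 4858; GENCODE also gave the positions on GRCh38.

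R 4.3.3 with edgeR 4.0.16 was used: filterByExpr, TMM, and quasi-likelihood tests with robust estimation, adjusted over 11732 genes. Standard errors are the log2 change over the square root of F. The design had no clone term, and a replicate block for the clone was an alternative. Deviations from the group means correlated within clones (r = 0.49, 0.28 and 0.53 in the order WT2, WT5, WT37), and the labels tie each clone to 1 library per group, so the clones pair the samples and blocked values are printed. Ratios within a clone used a prior count of 2. Their intervals, at 95%, cover counting error only. Libraries of a group differed beyond sampling noise (chi-square 6.41 to 20.5 times its degrees of freedom). With the clone as a block, the DOX p-values set the change against its variation among these clones. Without the block, they set it against the spread between libraries of a group. In the clone test, the difference between clones was the effect tested. limma 3.58.1 (voom) and DESeq2 1.42.0 were alternatives. Robust estimation was adopted after both versions had been seen, because it gave the counts of an earlier treatment of these data; the version without it is an alternative. The fits were tested on simulated data. The 8 genes, the partner list and the tests were chosen with earlier results of these data known. Named genes were the 8, ZEB2, partners past the threshold, and the 5 genes of mean CPM at least 10 closest to the mean pattern. ILDR1, LSR, CLDN7, PHLPP2, the partners wholly below or above with DOX and the single markers were named outside this rule. They were chosen after their values were seen. 1 partner gene is counted in the totals of its list, but its own values are not reported here.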

Additional observations from a re-analysis of the deposited data

Results flagged for a closer look

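TJP1 went opposite ways in the clones: its log2 ratio with DOX over without DOX was 0.30 in WT37, -0.28 in WT2 and -0.26 in WT5. Each clone had 1 library per condition, and the difference between clones was not tested.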

How the results depend on the processing

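Fits without robust estimation, and the clone test without single libraries, were alternatives chosen after seeing the data. For all changes given here, the cause was not tested. For DOX, edgeR without the block called 0 genes, 0 of the 8 members and 0 partners (709 genes had an unadjusted p under 0.05). The replicate block called 152 genes, 1 member and 1 partner; with size factors 155, 1 and 1; with limma-voom 185, 1 and 1; with DESeq2 133, 1 and 0; without robust estimation 183, 1 and 1; with no filter 518, 2 and 4. Without the block, no filter called 206, 1 and 1, and DESeq2 57, 1 and 0. Omitting 1 clone or library gave 0 to 35 genes, 0 to 1 members and 0 partners (35 and 1 without the WT5 library with DOX), and with the block 5 to 736 genes, 0 to 2 members and 0 to 6 partners (736, 2 and 6 without WT5). The call of MARVELD3 held in 7 of 9 blocked fits, and its log2 fold change stayed between -1.43 and -0.82 in all 25 fits. OCLN, MARVELD2, TJP3, F11R and CXADR were below 0 in all 25. TJP1 ranged from -0.27 to 0.04 (0.03 in a blocked fit without WT2 and in one without WT5) and CGN from -0.32 to 0.26, and the values above 0 all came with a clone or library omitted. Between clones, 802 genes and 1 member (CGN) passed. No filter gave 1783 and 2, DESeq2's likelihood ratio test 441 and 0. With 1 clone omitted 129 (without WT37) to 1782 genes (without WT5) and 0 to 2 members passed, and with 1 library omitted 265 to 2285 genes and 0 to 3 members. All 48 alternatives of the ratios within clones stayed inside counting error. OCLN, with at most 30 reads per library, is the member most limited by depth.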
